A study of Mus musculus with 12 samples.

Results

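The genes that carry glucose carbon through glycolysis, the pyruvate dehydrogenase step and the Krebs cycle were measured by RNA-Seq in CD4+ T cells of B6 mice and of lupus-prone SLE123 mice, with and without anti-CD45RB. The list held 37 of the 35275 genes in the table and was set by pathway. Of the 37, 21 belong to glucose uptake, glycolysis and lactate handling, 4 to the pyruvate dehydrogenase step and 12 to the Krebs cycle. Glycolysis turns glucose into pyruvate in the cytosol. Pyruvate is then either reduced to lactate and exported, or taken into mitochondria, where pyruvate dehydrogenase makes the acetyl-CoA that feeds the Krebs cycle, and pyruvate dehydrogenase kinases switch that enzyme off. Resting naive T cells depend mainly on mitochondrial oxidation, whereas activated effector T cells take up more glucose and make more lactate.

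Each of 12 female mice gave 1 library, with 3 mice in each of 4 groups. B6 mice were C57BL/6J, and SLE123 mice were a B6 congenic line with the Sle1, Sle2 and Sle3 susceptibility regions of NZM2410 (B6.NZMSle1/Sle2/Sle3), so that every difference between the strains is a difference between a line with all 3 regions and a line with none. Treated mice received 5 intraperitoneal injections of 100 µg of the anti-CD45RB antibody MB23G2 between days 0 and 7, and untreated mice received no antibody that the labels name. The methods give an age of 9 weeks, the legend gives 9 to 12 weeks, and the cells were enriched by negative magnetic selection to about 98% purity. Whether mice of a group shared a litter or cage is not given, so p-values measure the spread between these mice. Values are FPKM, the fragments of a gene scaled by transcript length and library size, and depth was 13562933 to 23641603 fragments per library.

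The label of CD4+ T cells held in all 12 libraries, since each of the 9 T cell markers, Cd4 and Cd3e among them, was above 1 FPKM in every group (Cd4 237 to 327 FPKM). Several libraries stood apart in other RNA. Immunoglobulin genes took 0.0895% to 0.336% of the fragments in B6 mice and 2.51% to 12.2% in SLE123 mice. Of the summed FPKM of a library they took 0.327% to 1.46% in B6 and 11.3% to 39.8% in SLE123 mice. Summed plasma cell markers (7 genes) were 58.1 to 198 FPKM in B6 and 1066 to 5118 FPKM in SLE123 mice. Transcripts of liver (8 genes, Alb at 24.7 to 30.7 FPKM) were in all 6 B6 libraries and in SLE123 treated replicate 1 and near 0 in the other 5 SLE123 libraries, so strain and this RNA could be separated only through that library. In cell mixtures of this kind, more cells of a type and more RNA per cell cannot be told apart.

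To be tested, a gene had to average 0.5 FPKM or more in the 12 libraries. All 37 genes did so, as did 13115 genes in all. The levels of the 37, which FPKM makes comparable between genes, ran from a mean of 1.49 FPKM for Aldoc to 421 FPKM for Gapdh, the glyceraldehyde phosphate dehydrogenase of lower glycolysis and the highest of the 21 glycolysis genes. Pkm, the pyruvate kinase, followed with 289 FPKM, then Ldha, the lactate dehydrogenase subunit that favours lactate, with 264 FPKM, Eno1 with 244 FPKM and Aldoa with 237 FPKM. Mdh2, the mitochondrial malate dehydrogenase, was the highest gene of the Krebs cycle at 118 FPKM, and Pdhb, the beta subunit of pyruvate dehydrogenase, the highest of the pyruvate step at 65.4 FPKM. Between 28 and 17750 fragments stood behind each value, the fewest for Hk2 in an untreated B6 mouse.

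**Figure D1:**
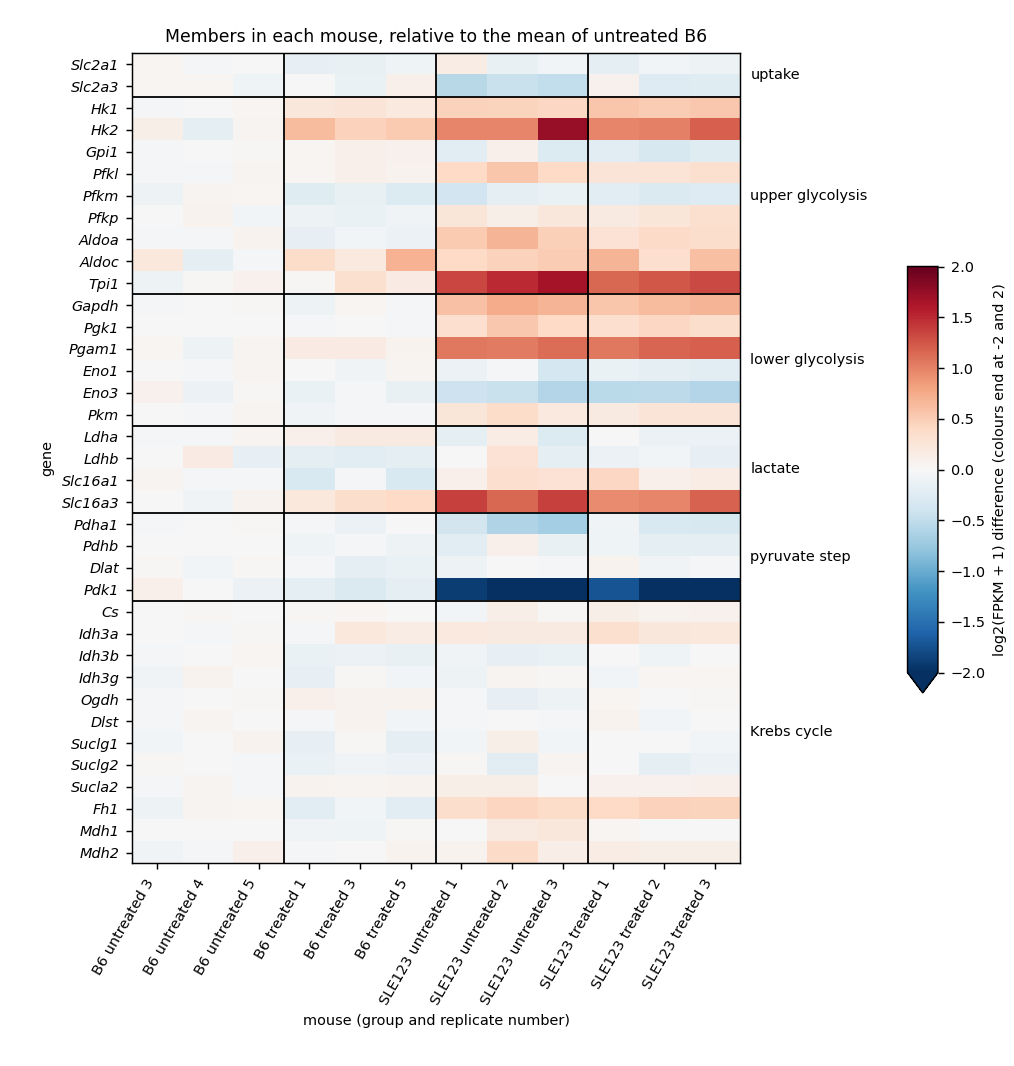
Each cell is the log2(FPKM + 1) of a gene in a mouse minus the mean of the 3 untreated B6 mice, with genes in rows by role and mice in columns by group. The 6 SLE123 columns differ from the 6 B6 columns in many glycolysis rows and in Pdk1, while 10 of the 12 Krebs cycle genes, all but Fh1 and Mdh2, were not called between the strains.

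Most steps had a dominant isozyme. Hk1, the ubiquitous hexokinase, was 15.2 to 155 times the level of the inducible Hk2. Ldhb, the subunit that favours lactate oxidation, made up 5.40% to 8.04% of Ldha and Ldhb together over all mice. Aldoc was 0.338% to 1.12% of the pair with Aldoa, and Eno3, the muscle enolase, was 3.91% to 5.66% of the pair with Eno1. The phosphofructokinases were mixed, with the platelet form Pfkp at 48.2% to 55.2%, the liver form Pfkl at 29.5% to 39.3% and the muscle form Pfkm at 10.9% to 17.5% of the 3 together. Of the succinyl-CoA synthetase subunits, the GTP form Suclg2 was 45.7% to 52.8% of the pair with the ATP form Sucla2. Glucose transporter Slc2a3 (GLUT3) was 42.0% to 46.8% of the pair with Slc2a1 (GLUT1) in B6 mice and 31.0% to 48.5% in SLE123 mice.

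The comparison of untreated mice asked how the lupus-prone cells differed before any antibody. Untreated SLE123 mice differed from untreated B6 mice most in Pdk1, a kinase that inhibits pyruvate dehydrogenase, and in the glycolytic enzymes Tpi1 and Pgam1, the lactate exporter Slc16a3 (MCT4) and Hk2. A gene was called at an adjusted p-value under 0.05 (limma on log2(FPKM + 1), Benjamini-Hochberg over all genes tested). Of the 37 genes, 11 were higher and 4 were lower in SLE123, which is 40.5% called against 42.9% of all genes tested (22.8% higher and 20.1% lower), so the list as a whole was called about as often as other genes. The strains did not overlap for 15 higher and 7 lower genes, beside 58.6% of all genes tested (29.1% higher and 29.5% lower), and 19 genes had an unadjusted p-value under 0.05, beside 52.3%. The calls were unevenly spread. They took in 12 of 21 glycolysis genes (57.1%), 2 of 4 genes of the pyruvate step and 1 of 12 Krebs cycle genes (8.33%), and the median absolute difference was 0.44, 0.32 and 0.09 on the log2 scale in these classes, beside 0.30 over all genes tested.

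Pdk1 was 87.6, 81.8 and 75.1 FPKM in the untreated B6 mice and 21.2, 16.9 and 11.6 FPKM in the untreated SLE123 mice. It was 71.8, 66.2 and 72.0 FPKM in treated B6 mice and 23.9, 18.7 and 18.2 FPKM in treated SLE123 mice. No SLE123 mouse reached the lowest B6 mouse in either state. The difference was -2.27 ± 0.19 (SE) on the log2 scale without treatment (adjusted p = 0.000157) and -1.75 ± 0.10 with it (adjusted p = 4.71e-05), and mean FPKM in SLE123 was 0.203 and 0.290 of that in B6. Its target subunit Pdha1 was also lower in untreated SLE123 mice, with 36.6, 30.8 and 29.3 FPKM against 46.5, 47.4 and 48.5 FPKM (difference -0.55 ± 0.10, adjusted p = 0.00372). Treated SLE123 mice had 45.2, 38.3 and 37.8 FPKM of Pdha1 against 43.7 to 47.5 FPKM in treated B6 mice, and the difference of -0.18 ± 0.07 was not called (adjusted p = 0.0851). The groups overlapped only through the 45.2 FPKM of replicate 1, the SLE123 library with liver RNA. Pdhb and Dlat, the other subunits measured, ranged from 58.9 to 74.3 and from 10.6 to 12.9 FPKM over all mice and were called in neither strain comparison.

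**Figure D2:**
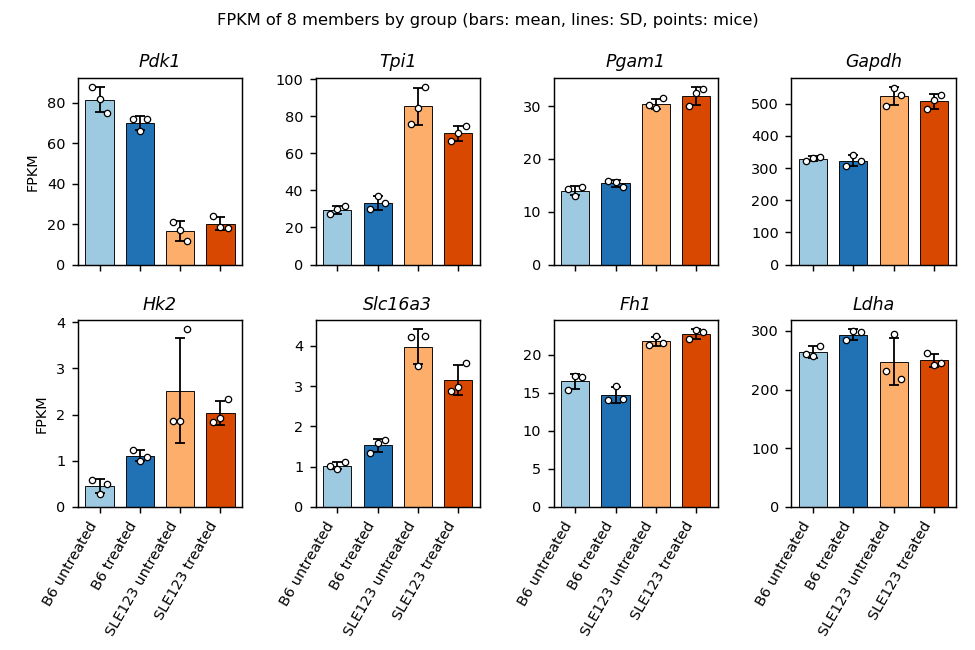
FPKM of 8 genes by group, with bars for the mean, lines for the SD and points for the 3 mice. Pdk1 lies at 66.2 to 87.6 FPKM in B6 and 11.6 to 23.9 FPKM in SLE123 mice, and Tpi1 and Pgam1 are above every B6 mouse in all 6 SLE123 mice.

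Triose phosphate isomerase, Tpi1, was 27.3, 29.9 and 31.4 FPKM in untreated B6 mice and 75.6, 84.5 and 95.9 FPKM in untreated SLE123 mice. This was the largest rise of the list, 1.50 ± 0.11 on the log2 scale or 2.89-fold in mean FPKM (adjusted p = 6.52e-05). Hk2 was 0.573, 0.281 and 0.507 FPKM in untreated B6 and 1.85, 1.86 and 3.84 FPKM in untreated SLE123 mice, a difference of 1.23 ± 0.22 (adjusted p = 0.00426) that at such low levels is understated by the added 1. Hk1 was higher too, with a mean of 59.3 ± 0.93 (SD, n = 3) against 43.4 ± 1.3 FPKM. Among the further upper steps, Pfkl (28.5 against 20.6 FPKM), Aldoa (299 against 203 FPKM) and Aldoc (1.62 against 0.930 FPKM) were called higher, while Gpi1, Pfkm and Pfkp were not called (adjusted p = 0.351, 0.0972 and 0.0671). The upper glycolysis genes called therefore all pointed up, 6 of 9.

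In lower glycolysis, Gapdh, Pgk1 and Pgam1 were higher in untreated SLE123 mice and Eno3 was lower. Pgam1, a phosphoglycerate mutase, was 14.3, 13.0 and 14.6 FPKM in untreated B6 and 30.2, 29.5 and 31.5 FPKM in untreated SLE123 mice (1.07 ± 0.08, adjusted p = 7.14e-05). Gapdh was 321, 332 and 335 FPKM against 494, 550 and 529 FPKM (0.67 ± 0.10, adjusted p = 0.00222), and Pgk1, a phosphoglycerate kinase, averaged 121 ± 9.1 against 90.0 ± 0.73 FPKM. Both genes were separated completely between the strains. Eno3 was 15.5, 13.4 and 14.7 against 10.7, 10.4 and 9.38 FPKM (-0.48 ± 0.09, adjusted p = 0.00543). Eno1 (-0.17 ± 0.11, adjusted p = 0.238) and Pkm (0.27 ± 0.10, adjusted p = 0.0621) were not called.

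At the ends of the pathway, the transporters pointed in different directions. Slc16a3, which exports lactate from highly glycolytic cells, was 1.03, 0.931 and 1.12 FPKM in untreated B6 and 4.22, 3.49 and 4.24 FPKM in untreated SLE123 mice, or 3.88-fold (1.30 ± 0.11, adjusted p = 0.000159). The glucose transporter Slc2a3 was lower in SLE123, with 8.19, 8.94 and 8.56 FPKM against 12.9, 12.8 and 11.8 FPKM (-0.50 ± 0.08, adjusted p = 0.00300). Slc2a1, the main glucose transporter of activated T cells, was 14.7 to 18.2 FPKM in untreated SLE123 and 16.1 to 16.8 FPKM in untreated B6 mice and was not called (-0.02 ± 0.09, adjusted p = 0.861). Ldha (218 to 294 against 257 to 275 FPKM), Ldhb (17.3 to 24.6 against 17.7 to 22.4 FPKM) and Slc16a1 (MCT1, 7.60 to 9.09 against 6.86 to 7.28 FPKM) were not called either, and the groups overlapped for both dehydrogenase subunits.

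Treated SLE123 mice were compared with treated B6 mice in the same way, with none of the mice in common with the comparison above. The list had 14 genes higher and 5 lower, 51.4% called beside 52.1% of all genes tested (29.6% higher and 22.5% lower). There was no overlap for 19 higher and 6 lower genes, beside 61.8% of all genes tested (34.7% higher and 27.1% lower), and 21 had an unadjusted p-value under 0.05, beside 58.3%. Calls covered 16 of 21 glycolysis genes (76.2%), 1 of 4 genes of the pyruvate step and 2 of 12 Krebs cycle genes (16.7%). All 6 lower glycolysis genes were called. Gapdh, Pgk1, Pgam1 and Pkm were higher, and Eno1 and Eno3 were lower.

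Pgam1 had the smallest adjusted p-value of the list here, with 15.8, 15.7 and 14.6 FPKM in treated B6 and 30.0, 32.5 and 33.3 FPKM in treated SLE123 mice (1.01 ± 0.05, adjusted p = 3.80e-05). Tpi1 was 29.8, 37.1 and 33.0 against 66.8, 70.8 and 74.8 FPKM (1.07 ± 0.08, adjusted p = 0.000114). In mean FPKM these differences were 2.08-fold and 2.12-fold. Slc16a3 was 1.34, 1.58 and 1.66 against 2.89, 2.99 and 3.57 FPKM or 2.06-fold (0.71 ± 0.10, adjusted p = 0.00102). Gapdh was 1.57-fold higher (0.65 ± 0.05, adjusted p = 0.000158), Aldoa 1.37-fold (0.45 ± 0.04), Pgk1 1.32-fold (0.39 ± 0.04), Pfkp 1.28-fold (0.35 ± 0.05) and Pkm 1.22-fold (0.28 ± 0.04). Hk2 was 1.24, 0.997 and 1.09 against 1.84, 1.92 and 2.33 FPKM (0.52 ± 0.10, adjusted p = 0.00435), Hk1 was 1.24-fold and Pfkl 1.16-fold higher, and Slc16a1 was 5.50, 6.80 and 5.45 against 9.68, 7.55 and 7.87 FPKM (0.44 ± 0.11, adjusted p = 0.0165).

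The genes lower in treated SLE123 mice besides Pdk1 were Gpi1, the glucose phosphate isomerase, with 82.3 to 89.1 against 106 to 111 FPKM (-0.34 ± 0.04, adjusted p = 0.000789), Eno3 with 9.34 to 9.84 against 12.9 to 14.3 FPKM (-0.45 ± 0.05, adjusted p = 0.000669), Eno1 with 223 to 237 against 246 to 271 FPKM (-0.17 ± 0.05, adjusted p = 0.0215) and Ldha with 243 to 262 against 284 to 300 FPKM (-0.24 ± 0.05, adjusted p = 0.00493). None of these groups overlapped. Slc2a3 was 11.3 to 13.5 FPKM in treated B6 and 10.3 to 13.3 FPKM in treated SLE123 mice and was not called (-0.13 ± 0.11, adjusted p = 0.344), and neither were Slc2a1, Pfkm, Aldoc and Ldhb (adjusted p = 0.851, 0.656, 0.565 and 0.111). For Slc2a3 the overlap came from SLE123 replicate 1 (13.3 FPKM), while the other treated SLE123 mice (10.3 and 10.4 FPKM) lay below every treated B6 mouse.

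**Figure D3:**
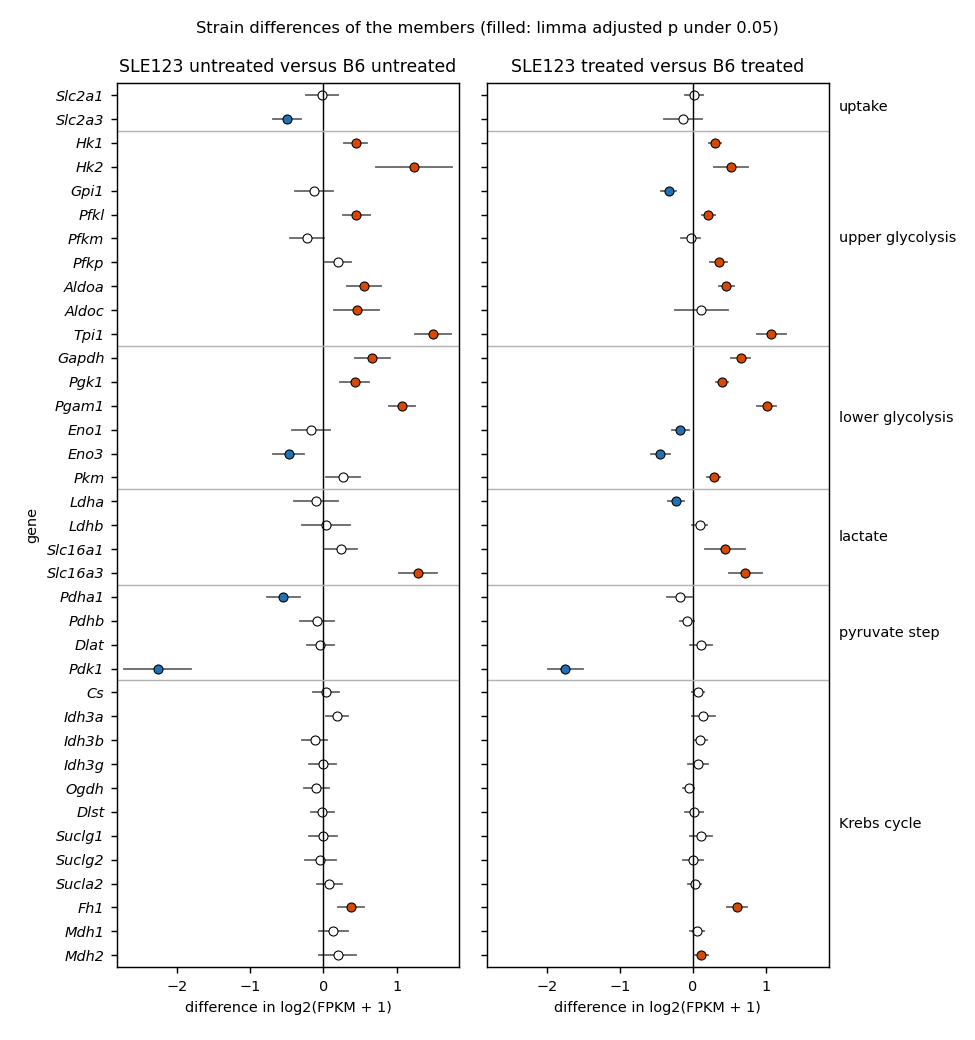
Difference of SLE123 minus B6 in log2(FPKM + 1) for each gene, untreated mice on the left and treated mice on the right, with lines for the 95% interval of limma and filled points for adjusted p under 0.05 (orange higher, blue lower). Pdk1 lies at -2.27 and -1.75, Tpi1 at 1.50 and 1.07, and most Krebs cycle genes lie near 0.

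Between them the strain comparisons called 12 of the 37 genes both times, always in the same direction. These were 80.0% of the 15 called without and 63.2% of the 19 called with treatment, beside 73.1% and 60.1% for all genes tested. Hk1, Hk2, Pfkl, Aldoa, Tpi1, Gapdh, Pgk1, Pgam1, Slc16a3 and Fh1 were the 10 higher genes, and Eno3 and Pdk1 the 2 lower genes. Another 15 genes were called in neither comparison, and 10 of them belong to the Krebs cycle.

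Few Krebs cycle genes were called between the strains. Citrate synthase, Cs, ranged from 64.4 to 72.9 FPKM over all 12 mice, Dlst, the transferase subunit of the oxoglutarate dehydrogenase complex, from 48.2 to 53.0 FPKM, and its dehydrogenase subunit Ogdh from 55.1 to 66.6 FPKM. Differences of the class lay between -0.12 and 0.38 on the log2 scale in untreated and between -0.06 and 0.60 in treated mice. Fh1, the fumarase, was the exception in both, with 15.4, 17.2 and 17.0 FPKM in untreated B6 and 21.3, 22.5 and 21.6 FPKM in untreated SLE123 mice (0.38 ± 0.08, adjusted p = 0.00697). With treatment it was 14.1, 15.9 and 14.2 against 22.1, 23.2 and 23.0 FPKM (0.60 ± 0.06, adjusted p = 0.000247). Mdh2 was called higher in treated mice only, with 109 to 117 against 120 to 124 FPKM (0.11 ± 0.04, adjusted p = 0.0414), and its direction reversed under TPM (-0.0651), quantile normalization (-0.0261) and scaling to T cell markers (-0.0715). Sucla2, Suclg1 and Suclg2, the isocitrate dehydrogenase subunits Idh3a, Idh3b and Idh3g, and Mdh1 were not called (adjusted p of 0.0562 or more).

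**Figure D4:**
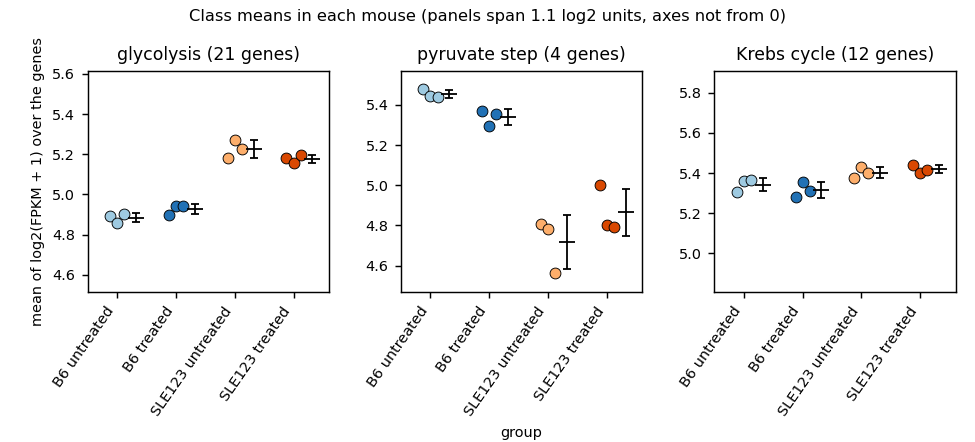
Mean of log2(FPKM + 1) over the genes of each class, with points for mice and, beside them, the mean and SD of the group. The glycolysis mean of every SLE123 mouse is above that of every B6 mouse, the pyruvate step mean is below, and the Krebs cycle means lie between 5.28 and 5.44 in all 12 mice.

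Averaged over its 21 genes, glycolysis was 4.88 ± 0.02 (SD, n = 3) in untreated B6, 4.93 ± 0.03 in treated B6, 5.23 ± 0.05 in untreated SLE123 and 5.18 ± 0.02 in treated SLE123 mice on the log2(FPKM + 1) scale. The Krebs cycle mean over 12 genes was 5.34 ± 0.03, 5.32 ± 0.04, 5.40 ± 0.03 and 5.42 ± 0.02 in the same order. The pyruvate step, 4 genes of which Pdk1 moved most, had means of 5.45 ± 0.02, 5.34 ± 0.04, 4.72 ± 0.14 and 4.86 ± 0.12. The strain differences in the glycolysis mean were 0.34 without and 0.25 with treatment, and in the Krebs cycle mean 0.06 and 0.10, with no overlap between the strains. Under TPM the glycolysis differences were 0.02 and 0.10 and those of the Krebs cycle -0.32 and -0.07. No test was made on these means.

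The size of the strain differences depended on what the libraries were scaled to. TPM divides each FPKM by the summed FPKM of its library, immunoglobulin genes included. When FPKM were rescaled to TPM, the median difference over all genes was -0.38 in untreated and -0.14 in treated mice. Under TPM 4 higher and 17 lower list genes were called without treatment (56.8%, beside 60.1% of all genes tested, 14.6% higher and 45.6% lower), and 9 higher and 8 lower with it (45.9%, beside 52.8%, 18.6% higher and 34.2% lower). Quantile normalization gave 8 higher and 10 lower genes without and 11 and 9 with treatment (48.6% and 54.1%, beside 52.8% and 56.9% of all genes, whose medians were -0.16 and -0.11). Leaving immunoglobulin, haemoglobin and mitochondrial genes out of the scaling gave 15 higher and 4 lower without and 23 and 4 with treatment (51.4% and 73.0%, beside 37.5% and 54.8% of all genes). Scaling to T cell markers gave 10 and 4 without and 9 and 12 with treatment (37.8% and 56.8%, beside 33.4% and 59.5% of all genes, whose medians were -0.03 and -0.16). Centring each library on its median gave 13 and 4 without and 13 and 8 with treatment (45.9% and 56.8%, beside 43.3% and 53.5%). Relative to the median of all genes, the median glycolysis gene was 0.29 higher in untreated SLE123 mice as deposited, 0.28 under TPM and 0.26 under quantile normalization, and the median Krebs cycle gene was 0.04, 0.02 and 0.09 higher. Hk2, Tpi1, Pgam1, Slc16a3, Slc2a3, Eno3, Pdha1 and Pdk1 kept their call and direction between untreated strains in all 18 alternatives, and Gpi1, Pfkp, Aldoa, Tpi1, Gapdh, Pgk1, Pgam1, Eno3, Slc16a3, Pdk1 and Fh1 between treated strains in all 19.

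Other cell types and states moved with the strain, and their part in these differences was not tested. All 8 markers of cycling cells were higher without overlap in SLE123 mice in both comparisons (summed 120.6 to 205 against 38.7 to 54.0 FPKM), as were all 7 plasma cell markers. Effector and memory markers were higher (6 of 6 untreated and 5 of 6 treated, summed 372 to 453 against 104.5 to 145 FPKM), and all 5 naive markers were lower (644 to 1216 against 1683 to 1831 FPKM). B cell markers (8 genes) summed to 6.46 to 7.85 in untreated B6, 27.1 to 35.7 in treated B6, 64.5 to 239.5 in untreated SLE123 and 38.0 to 58.1 FPKM in treated SLE123 mice. Between untreated strains, 7 of 8 myeloid markers (summed 44.2 to 104.5 against 5.22 to 10.99 FPKM), 6 of 7 erythroid markers (30.2 to 49.6 against 0.761 to 2.20 FPKM) and 3 of 4 platelet markers (6.06 to 11.2 against 2.47 to 4.42 FPKM) were higher without overlap in SLE123, and 1 myeloid marker was lower. Between treated strains, 5 of 8 myeloid markers were lower without overlap in SLE123 (24.7 to 51.7 against 55.2 to 127 FPKM), as were 4 of 4 platelet and 1 of 7 erythroid markers. Of the 7 cytotoxic and NK markers, 1 was higher and 3 were lower between untreated strains (70.7 to 82.6 against 75.5 to 79.5 FPKM), and 1 was higher and 5 were lower between treated strains (85.8 to 99.9 against 124 to 148 FPKM). Of the 5 skeletal muscle genes, Ckm, Acta1 and Myh4 were at or near 0 (at most 0.171 FPKM) while Mylpf and Tnnt3 were lower in SLE123, as was the muscle enolase Eno3. The 9 T cell markers summed to 2084 to 2607 FPKM over all mice.

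Without SLE123 treated replicate 1, the SLE123 library with liver RNA, 13 higher and 7 lower genes were called between treated strains (54.1%, beside 51.0% of all genes tested). In that library itself Pdk1 (23.9 FPKM), Tpi1 (66.8 FPKM) and Pgam1 (30.0 FPKM) lay on the SLE123 side of all B6 libraries, which carried liver RNA too. These values were nearer to B6 than in the other treated SLE123 mice, while Hk1 (64.3 FPKM) and Slc16a1 (9.68 FPKM) were farther. Slc2a3 (13.3 FPKM) and Pdha1 (45.2 FPKM) lay within the treated B6 range there and below it in the other treated SLE123 mice. The part of liver RNA in these values was not tested. Of the 37 genes, Fh1 is on chromosome 1, Slc2a1 and Eno1 are on chromosome 4, and Gpi1, Aldoa and Ldha are on chromosome 7, the chromosomes of Sle1, Sle2 and Sle3. The region boundaries are not given in the sources used here. Pdk1 (chromosome 2), Tpi1 (chromosome 6) and Pgam1 (chromosome 19) are on none of them. For 8 genes a stretch of the transcript also matches other loci at 98% identity or more, over 88.0% of Gapdh, 85.6% of Eno1, 76.8% of Ldhb, 68.8% of Pgk1, 65.5% of Pkm, 43.1% of Pgam1, 38.7% of Suclg2 and 36.3% of Gpi1, and their values are uncertain as far as reads were shared. The matching loci summed in any mouse to at most 15.2 FPKM for Gpi1, 2.175 for Gapdh, 1.57 for Eno1 and 1.18 for Pgam1. For Ldhb, Suclg2, Pgk1 and Pkm the highest sums were 0.593, 0.286, 0.106 and 0 FPKM. No such match was found for Tpi1, Pdk1, Hk2, Slc16a3 or Fh1.

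Promoters are shown for Pgam1, Pdk1, Gapdh and Pgk1, which of the genes that hold a searched motif had the smallest adjusted p-values between treated strains. By the size of the difference, among genes with a motif, Slc16a3, Fh1, Hk2, Eno3 and Slc16a1 came before Pgk1, and Tpi1, with a smaller p-value than Gapdh and Pgk1, holds none of the motifs. Sequences are the 250 bases before the start site from RefSeq on build GRCm38.p6, in the direction of the gene, for Pgam1 (chr19:41911621-41911870, plus strand), Pdk1 (chr2:71872974-71873223, plus strand), Gapdh (chr6:125165774-125166023, minus strand) and Pgk1 (chrX:106186850-106187099, plus strand). Capitals mark ACGTG or GCGTG, the core of the hypoxia response element, or their reverse complements CACGT and CACGC.
Pgam1: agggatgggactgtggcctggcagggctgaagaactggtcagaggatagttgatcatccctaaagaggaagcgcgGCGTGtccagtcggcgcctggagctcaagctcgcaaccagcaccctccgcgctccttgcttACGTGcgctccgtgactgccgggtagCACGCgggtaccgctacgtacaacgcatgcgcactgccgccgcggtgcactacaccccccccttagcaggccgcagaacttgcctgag
Pdk1: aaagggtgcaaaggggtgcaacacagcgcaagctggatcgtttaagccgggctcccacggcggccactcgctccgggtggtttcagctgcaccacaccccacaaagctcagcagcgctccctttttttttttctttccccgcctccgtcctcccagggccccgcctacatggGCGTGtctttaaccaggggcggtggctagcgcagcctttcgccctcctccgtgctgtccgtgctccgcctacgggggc
Gapdh: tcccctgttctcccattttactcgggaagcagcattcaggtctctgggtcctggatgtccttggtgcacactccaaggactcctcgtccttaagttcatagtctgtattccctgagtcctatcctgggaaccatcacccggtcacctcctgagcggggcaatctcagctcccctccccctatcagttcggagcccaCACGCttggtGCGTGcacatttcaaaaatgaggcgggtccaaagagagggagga
Pgk1: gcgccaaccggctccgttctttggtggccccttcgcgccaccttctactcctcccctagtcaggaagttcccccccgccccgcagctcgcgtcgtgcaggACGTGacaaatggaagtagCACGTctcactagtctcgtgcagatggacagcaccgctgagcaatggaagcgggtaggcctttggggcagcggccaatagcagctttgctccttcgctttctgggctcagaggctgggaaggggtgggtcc

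Pgam1 holds 1 ACGTG and 2 GCGTG, Pdk1 and Gapdh hold 1 and 2 GCGTG, and Pgk1 holds 2 ACGTG, on either strand. The start site that RefSeq gives for Gapdh lies 694 bases from the outermost GENCODE M21 start, and that of Pgam1 52 bases from it. Over the 35 genes of the list with a promoter in the table, ACGTG was found on either strand in 12 (34.3%) and GCGTG in 18 (51.4%), beside 16.5% and 28.3% of 27025 mouse promoters of the same length. The E-box CACGTG, which contains ACGTG, was in 3 (8.57%, against 6.01%), those of Pfkm, Ldha and Slc16a1, and TGACG, the core of the cyclic AMP response element, in 10 (28.6%, against 17.8%). All 4 motifs contain CG. The 27025 promoters include those of genes not tested here and were not matched to the list for CG content or expression, so the shares are descriptions only. The 19 genes called between treated strains held ACGTG in 31.6% and GCGTG in 52.6%, and the 16 not called in 37.5% and 50.0%. Tpi1, Hk1, Gpi1, Aldoa and Pkm, which were called, hold none of the 4 motifs in this window.

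Treatment was then compared within each strain, which asked whether anti-CD45RB altered these genes in normal and in lupus-prone mice. These comparisons share the untreated and treated mice with the strain comparisons above. In B6 mice, Hk1, Hk2 and Ldha were higher after anti-CD45RB and Idh3b was lower. These 4 of 37 genes are 10.8%, beside 14.9% of all genes tested (8.74% higher and 6.12% lower), so the list was not called more often than other genes. Treated and untreated B6 mice did not overlap for 19 genes (8 higher and 11 lower), beside 38.0% of all genes tested (19.4% higher and 18.6% lower), and 17 genes had an unadjusted p-value under 0.05, beside 32.3%. None of the 4 calls held in all 19 alternatives. Without untreated replicate 3, treated replicate 1 or treated replicate 3 limma called 2 genes (5.41%, beside 6.47%, 10.6% and 8.46% of all genes tested), and without untreated replicate 4 or treated replicate 5 it called 1 (2.70%, beside 5.15% and 6.44%). Quantile normalization called 3 higher and 5 lower genes (21.6%, beside 15.6% of all genes), and scaling to the T cell markers, which moved the median of all genes to 0.10, called 12 higher and 0 lower (32.4%, beside 24.8%). TPM and scaling without immunoglobulin, haemoglobin and mitochondrial genes called 3 higher and 2 lower and 4 higher and 2 lower (13.5% and 16.2%, beside 14.9% and 16.4%), and centring 4 higher and 0 lower (10.8%, beside 15.4%).

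Hk1 was 42.1, 43.6 and 44.6 FPKM in untreated and 50.7, 52.1 and 50.1 FPKM in treated B6 mice, 1.17-fold (0.23 ± 0.03, adjusted p = 0.00967). Hk2, at 0.573, 0.281 and 0.507 FPKM in untreated mice, was 1.24, 0.997 and 1.09 FPKM in treated mice (0.54 ± 0.10, adjusted p = 0.0200), the largest change of the list in B6. Ldha was 261, 257 and 275 against 284, 300 and 298 FPKM, or 1.11-fold (0.15 ± 0.04, adjusted p = 0.0419). Idh3b, a subunit of the NAD-dependent isocitrate dehydrogenase, was 61.6, 63.7 and 65.4 against 58.0, 58.4 and 57.4 FPKM (-0.13 ± 0.03, adjusted p = 0.0396). All 4 were without overlap between the groups. The next largest differences, in Aldoc (0.42 ± 0.16, adjusted p = 0.118) and Slc16a3 (0.32 ± 0.09, adjusted p = 0.0528), did not pass the threshold, nor did Pfkm, Pdk1 and Slc16a1, each -0.22 (adjusted p = 0.0609, 0.0616 and 0.146).

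The other genes of the list were not called in B6 mice. Slc2a1 was 16.8, 16.1 and 16.2 FPKM without and 14.5, 14.7 and 15.3 FPKM with anti-CD45RB (-0.13 ± 0.04, adjusted p = 0.0873), and Slc2a3 was 11.8 to 12.9 against 11.3 to 13.5 FPKM. No gene of lower glycolysis was called, with differences between -0.10 and 0.13, and none of the pyruvate step, with differences between -0.22 and -0.05. Over the 21 glycolysis genes, 9 differences were positive and 12 negative, with a median of -0.01, and over the 12 Krebs cycle genes 5 were positive and 7 negative, with a median of -0.02, beside -0.0024 over all genes tested.

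**Figure D5:**
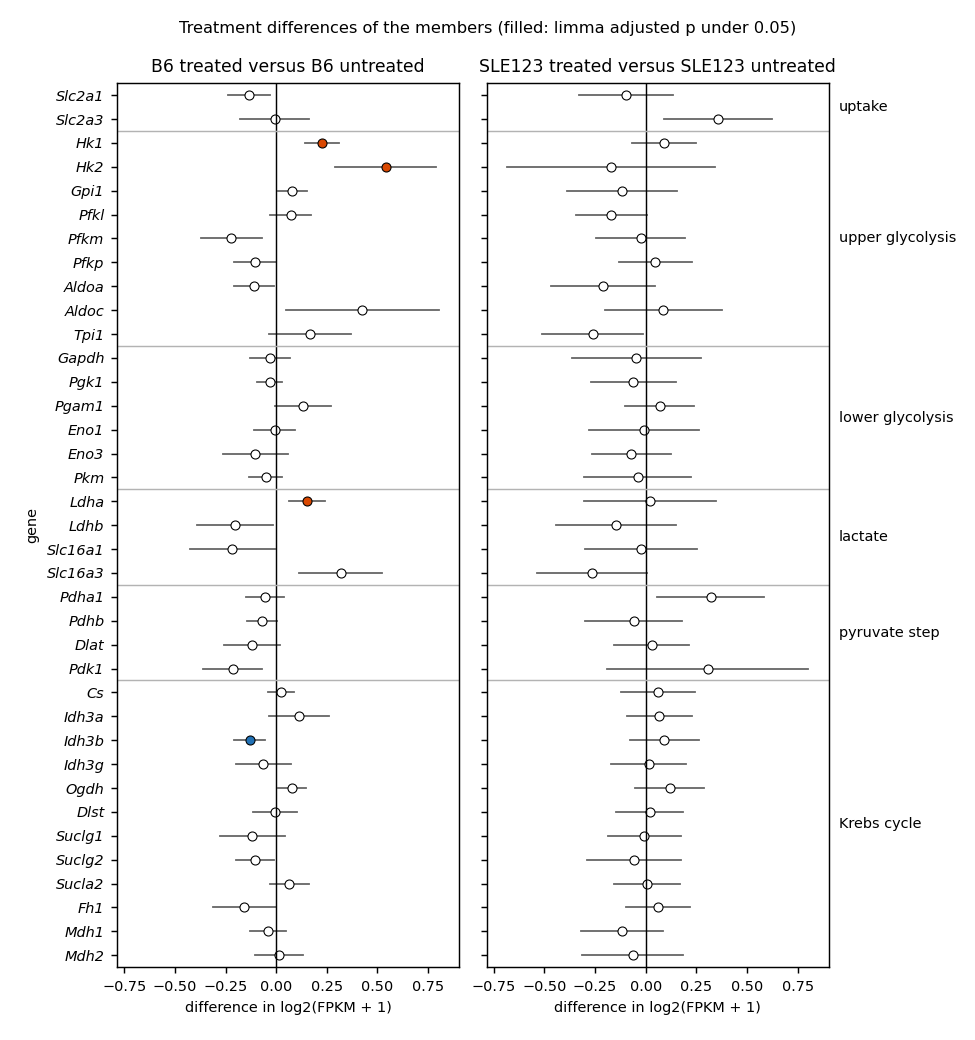
Difference of treated minus untreated mice in log2(FPKM + 1) for each gene, B6 on the left and SLE123 on the right, with lines for the 95% interval of limma and filled points for adjusted p under 0.05 (orange higher, blue lower). Hk1, Hk2, Ldha and Idh3b are filled in B6 and no gene is filled in SLE123, where most intervals are wider.

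In SLE123 mice limma called 0 of the 37 genes, beside 0.0381% of all genes tested (0.0152% higher and 0.0229% lower), and 3 had an unadjusted p-value under 0.05, Slc2a3, Pdha1 and Tpi1, beside 10.4%. The groups were apart, without overlap, for 5 higher and 3 lower genes, beside 19.7% of all genes tested (13.7% higher and 6.02% lower). Slc2a3 was 8.19, 8.94 and 8.56 FPKM without and 13.3, 10.3 and 10.4 FPKM with anti-CD45RB (0.36 ± 0.11, adjusted p = 0.455), and Pdha1 was 36.6, 30.8 and 29.3 against 45.2, 38.3 and 37.8 FPKM (0.32 ± 0.11, adjusted p = 0.466). Both were higher in every treated mouse. Tpi1 was lower in every treated mouse, with 66.8 to 74.8 against 75.6 to 95.9 FPKM (-0.26 ± 0.11, adjusted p = 0.469). Pdk1 was the third largest difference (0.31 ± 0.21, 95% interval -0.19 to 0.80) and overlapped between the groups. Untreated SLE123 mice differed widely among themselves, as in Hk2 (1.85 to 3.84 FPKM) and Ldha (218 to 294 FPKM), and of the 4 changes called in B6, the SLE123 interval included the B6 value for Hk1 and Ldha and lay beyond it for Hk2 and Idh3b. For Hk1, called at 0.23 in B6, the SLE123 interval was -0.07 to 0.25, and for Ldha, called at 0.15, it was -0.30 to 0.35. For Hk2, called at 0.54, it was -0.69 to 0.34, and for Idh3b, called at -0.13, it was -0.08 to 0.26, while the interaction was called for neither (adjusted p = 0.129 and 0.0937).

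The difference between the treatment effects was tested as a strain-by-treatment interaction over all 12 mice. Slc16a3 alone was called, 2.70% of the list beside 3.64% of all genes tested (1.27% higher and 2.38% lower). Its mean FPKM in treated mice was 1.49 times the untreated mean in B6 (1.34 to 1.66 against 0.931 to 1.12 FPKM) and 0.791 times in SLE123 mice (2.89 to 3.57 against 3.49 to 4.24 FPKM), where the groups overlapped (interaction -0.58 ± 0.14, adjusted p = 0.0455). In all, 8 genes had an unadjusted p-value under 0.05, beside 25.1% of all genes tested. Without SLE123 untreated replicate 1, the interaction was called for 7 genes, Pdha1 (0.47), Idh3b (0.25), Pdk1 (0.71), Tpi1 (-0.51), Slc16a3 (-0.55), Pfkl (-0.27) and Hk2 (-0.84), which is 18.9% of the list beside 22.2% of all genes tested. It was called for 1 gene without SLE123 untreated replicate 2 (2.70%, beside 3.79%), and for none without each of the other 10 mice (beside 1.56% to 3.05%). Hk2 was 2.45-fold higher in mean FPKM after treatment in B6 and 0.806 of the untreated mean in SLE123 mice, with an interaction of -0.71 ± 0.26 (adjusted p = 0.129) on all mice.

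RNA of other cells and of cell states moved with treatment in B6 mice, and its part in the calls above was not tested. Without overlap, 7 of 8 myeloid markers (summed 5.22 to 10.99 FPKM before and 55.2 to 127 FPKM after), 6 of 8 B cell, 5 of 7 cytotoxic and NK (75.5 to 79.5 before and 124 to 148 FPKM after, Ncr1 0.259 to 0.499 before and 5.35 to 6.40 FPKM after), 5 of 7 plasma cell, 6 of 7 erythroid and 4 of 4 platelet markers were higher, while 6 of 9 T cell markers were lower. Prf1, of the cytotoxic and NK list, was also lower without overlap (16.3 to 17.9 before and 11.6 to 13.2 FPKM after). Of the cycling cell markers in B6, 5 of 8 were higher without overlap (summed 38.7 to 42.0 before and 43.6 to 54.0 FPKM after). So were 2 of 6 effector and memory markers and 1 of 5 naive markers, while 2 naive markers were lower. In SLE123 mice, 4 of 8 myeloid, 5 of 8 B cell, 6 of 7 erythroid, 2 of 7 plasma cell and 1 of 4 platelet markers were lower after treatment. There 2 of 7 cytotoxic and NK and 1 of 6 effector and memory markers were higher, and 0 of 8 cycling cell markers were apart. In the summed levels, myeloid markers were 44.2 to 104.5 FPKM in untreated and 24.7 to 51.7 FPKM in treated SLE123 mice.

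Isozyme shares were also read in each group. Hk2 was 0.640% to 1.35% of both hexokinases in untreated B6, 1.88% to 2.39% in treated B6, 2.99% to 6.17% in untreated and 2.79% to 3.56% in treated SLE123 mice. Slc16a3 was 11.9% to 14.0% of the lactate transporter pair with Slc16a1 in untreated B6, 18.8% to 23.3% in treated B6, 27.8% to 35.7% in untreated and 23.0% to 31.2% in treated SLE123 mice. For both pairs the treated B6 mice lay above all untreated B6 mice, and the untreated SLE123 mice lay above all B6 mice. The ratio of Ldha to Pdha1, the enzymes at the branch between lactate and acetyl-CoA, was 5.41 to 5.67 in untreated B6, 6.17 to 6.86 in treated B6, 6.31 to 9.54 in untreated and 5.79 to 6.47 in treated SLE123 mice. Pfkm was 16.0% to 17.5% of the phosphofructokinases in untreated B6 and 10.9% to 12.9% in untreated SLE123 mice. These shares are descriptions, and no test was made on them.

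Other genes of the pathways, 64 that surround the list, were read beside it, and 51 of them were tested. Between untreated strains, 14 of 21 on the glycolysis side (8 higher and 6 lower) and 14 of 30 on the mitochondrial side (9 and 5) were called, 66.7% and 46.7% beside 42.9% of all genes tested. Pdk3, another pyruvate dehydrogenase kinase, was higher in SLE123 as Pdk1 was lower, with 13.2 to 15.3 against 7.16 to 7.40 FPKM (0.86 ± 0.09, adjusted p = 0.000296) and, in treated mice, 13.6 to 14.4 against 7.39 to 8.17 FPKM (0.77 ± 0.06, adjusted p = 9.05e-05). The glucose transporter Slc2a6 (1.92 ± 0.13, adjusted p = 5.49e-05) and the hexokinase Hk3 (1.73 ± 0.12, adjusted p = 7.24e-05), known in myeloid cells, were higher in untreated SLE123 mice. The mitochondrial aspartate/glutamate carrier Slc25a13 was higher (0.96 ± 0.11, adjusted p = 0.000633) and the malic enzyme Me2 lower (-0.56 ± 0.07, adjusted p = 0.000827).

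Between treated strains, 11 of 21 (5 higher and 6 lower) and 17 of 30 (14 and 3) of these genes were called, 52.4% and 56.7% beside 52.1% of all genes tested. Galm, the epimerase that interconverts the anomers of glucose, was higher in SLE123 (1.27 ± 0.07, adjusted p = 4.53e-05), as was Bpgm, the bisphosphoglycerate mutase (0.64 ± 0.06, adjusted p = 0.000271), while Adpgk, the ADP-dependent glucokinase, was lower (-0.57 ± 0.05, adjusted p = 0.000220). On the mitochondrial side Slc25a13 (1.12 ± 0.07, adjusted p = 5.34e-05) and Got1, the cytosolic aspartate aminotransferase (0.64 ± 0.05, adjusted p = 0.000158), were higher. With treatment in B6 mice, 4 of 21 (3 higher) and 4 of 30 (2 higher) were called, 19.0% and 13.3% beside 14.9% of all genes tested, among them Slc2a6 (0.74 ± 0.09, adjusted p = 0.00413), Hk3 (0.87 ± 0.14, adjusted p = 0.0122) and Gpd1l (0.25 ± 0.05, adjusted p = 0.0247), and Idh1 higher (0.79 ± 0.10, adjusted p = 0.00428) and Idh2 lower (-0.18 ± 0.03, adjusted p = 0.0177). None was called with treatment in SLE123 mice, and Hk3 (-1.41 ± 0.19), Slc2a6 (-1.13 ± 0.18) and Idh1 (-0.84 ± 0.14) were called for the interaction (adjusted p = 0.00364, 0.00666 and 0.00772).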

How the data were processed

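RNA-Seq of purified CD4+ T cells was made from 12 mice, and the authors deposited a table of FPKM for 35275 Ensembl genes, 1 column per mouse. Poly-A RNA was sequenced, and the submitters' processing notes name mm10, STAR and CASAVA 1.8. The program behind the FPKM values, its annotation and the strandedness of the library are not given in the sources used here, so reads of a gene and of an overlapping or antisense gene cannot be told apart. The methods also describe a step of sorting by CD25 that no label names.

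Mice were grouped by the labels. Genes averaging 0.5 FPKM or more in the 12 libraries were tested on log2(FPKM + 1), which understates changes of genes near 0, with limma 3.58.1 (R 4.3.3, lmFit and eBayes with a trend), 2 groups at a time and all 12 mice for the interaction, in 5 comparisons. P-values were adjusted by Benjamini-Hochberg over 13115 genes and called under 0.05. The study's methods describe DESeq2 on counts, which was not run on the FPKM. Steps in the FPKM gave whole fragments for 100% of 23230 genes above 0 (tolerance 0.002), with 13562933 to 23641603 fragments per mouse and a median of 16827791. A voom fit on them was an alternative. At this depth 3 fragments on a transcript of 2000 bases equal 0.0634 to 0.111 FPKM. This limit speaks for counting error alone.

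The members, the lists of 64 other pathway genes and the 12 lists of cell markers were chosen with earlier results of these data known. Described in full were members called in any comparison, the 3 with the largest difference in each pairwise comparison, the highest of each class and the genes of 9 pairs, and from the other pathway genes up to 3 per side and comparison. Symbols came from GENCODE M21 (97.8% of IDs), promoters from RefSeq on GRCm38.p6 (35 of 37 members matched, all but Slc2a3 and Idh3a) and shared sequence from BLAST+ 2.17.0 (98% identity over at least 100 bases). Python 3.11.15, pandas 2.3.3, numpy 2.4.6 and matplotlib 3.10.9 were used. Libraries of a group differed beyond counting noise, so none was counted as a duplicate. The fitting step was tested on simulated data. Alternatives changed the pseudocount, filter, scaling, spread estimate, samples fitted and replicate block, and left out each mouse in turn. Scaling to T cell markers was chosen after seeing the data.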

Additional observations from a re-analysis of the deposited data

Results flagged for a closer look

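The treatment effect on Slc16a3, the lactate exporter MCT4, differed between the strains in the limma interaction over all 12 mice, by -0.58 ± 0.14 on the log2 scale (adjusted p = 0.0455). The difference after anti-CD45RB was 0.32 in B6 and -0.26 in SLE123 mice, neither of them called on its own. Over 24 alternatives the interaction lay between -0.92 and -0.54 with an adjusted p of at most 0.215, and it passed the threshold in 7 of them.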

How the results depend on the processing

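All 44 named differences kept their direction in every alternative, except that between treated strains Pkm was -0.0275 under quantile normalization and Mdh2 was -0.0651 under TPM, -0.0261 under quantile normalization and -0.0715 under scaling to T cell markers. In B6 mice, treatment called 4 genes (10.8%, beside 14.9% of all genes tested). With no filter and with all 12 mice in a single fit 1 gene was called (2.7%, beside 4.88% and 6.21%). Voom called 7 (18.9%, beside 20.7%), quantile normalization 8 (21.6%, beside 15.6%) and scaling to T cell markers 12 (32.4%, beside 24.8%). Leaving out a mouse gave 1 to 5 in B6 (2.7% to 13.5%, beside 5.15% to 10.6%). The interaction called 1 gene (2.7%, beside 3.64% of all genes tested). It called 0 with no filter, under TPM, without immunoglobulin, haemoglobin and mitochondrial genes, under quantile normalization, under scaling to T cell markers and with a robust fit. Of all genes tested, these settings called 1.79%, 3.28%, 2.3%, 3.36%, 2.92% and 3.61%, in that order. Leaving out a mouse gave 0 to 7 for the interaction (0% to 18.9%, beside 1.56% to 22.2%). With a mouse left out, 14 to 19 list genes were called between untreated strains (15 with all mice). Of all 13115 genes tested, these fits called 3672 to 6469 (5621 with all mice). Between treated strains, 16 to 20 list genes were called (19 with all mice), beside 5524 to 6685 of all genes tested (6836 with all mice). With treatment in SLE123 mice, 0 list genes were called, beside 1 to 7 of all genes tested (5 with all mice). With the replicate number as a block, the counts were 0 in B6, 0 in SLE123 (beside 0.0305% of all genes tested), 12 between treated strains (9 higher and 3 lower, 32.4%, against 19) and 0 for the interaction (beside 0.259%). In B6 and between treated strains that fit held the 4 mice of 6 whose numbers are shared, so the block and the loss of mice cannot be told apart, and over all genes tested it called 3 and 3412 (0.0229% and 26.0%). No such fit was possible between untreated strains, which share 1 number. Mice with the same number did not deviate together throughout (correlations of -0.14 and -0.09 in B6 and 0.14, -0.16 and 0.27 in SLE123). Between the strains the correlations were 0.06 and 0.14 in treated mice and -0.07 in untreated mice. With 3 mice per group such values cannot decide whether mice with the same number share a litter, cage or batch. The glycolysis difference with treatment in B6 was 0.0939 with a pseudocount of 0.1, 0.0171 under quantile normalization and 0.15 under T cell scaling. In SLE123 it was 0.13 under TPM, -0.0905 after centring and -0.13 under T cell scaling. Between untreated strains it was 0.43 with a pseudocount of 0.1, 0.0208 under TPM, 0.43 without immunoglobulin, haemoglobin and mitochondrial genes and 0.13 under quantile normalization. Between treated strains it was 0.29, 0.0968, 0.35 and 0.0885 under the same settings, 0.21 after centring and 0.0649 under T cell scaling. For the interaction it was -0.15 with a pseudocount of 0.1, 0.0760 under TPM, -0.15 after centring, -0.0431 under quantile normalization and -0.27 under T cell scaling. The Krebs cycle difference was 0.0757 in B6 under T cell scaling, and in SLE123 it was 0.21 under TPM, -0.0247 after centring and -0.0615 under T cell scaling. Between untreated strains it was -0.32 under TPM, 0.15 without immunoglobulin, haemoglobin and mitochondrial genes and -0.0347 under quantile normalization. Between treated strains it was -0.0727, 0.20 and 0.0138 under these settings, 0.0660 after centring and -0.0824 under T cell scaling, and for the interaction it was 0.24 under TPM, -0.00937 after centring and -0.14 under T cell scaling. Leaving out a mouse gave glycolysis differences of 0.03 to 0.06 in B6, -0.07 to -0.03 in SLE123, 0.32 to 0.36 and 0.24 to 0.26 between untreated and treated strains and -0.11 to -0.07 for the interaction, and Krebs cycle differences of -0.05 to -0.0089, 0.0024 to 0.03, 0.04 to 0.07, 0.08 to 0.12 and 0.02 to 0.06. The causes of these shifts were not tested.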
